A study of Homo sapiens with 6 samples.

Results

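The apolipoprotein L (APOL) family was followed in 6 RNA-seq libraries of SKOV3 (SK-OV-3), an established human ovarian carcinoma cell line. The members were the genes whose symbol in the deposited table was APOL1, APOL2, APOL3, APOL4 or APOL6, which gave 5 of the 60498 genes listed, and all 5 belonged to the 15126 genes whose counts averaged 10 or more per library. The lines differed in STING1, the endoplasmic reticulum receptor of the cyclic dinucleotide cGAMP. WT/HAQ was the parent population with 1 WT and 1 HAQ haplotype, whereas WT/- and HAQ/- were clones in which dual guide CRISPR/Cas9 editing, with puromycin selection and limiting dilution, had left the WT or the HAQ haplotype alone. Each line was measured once without treatment and once after 2'3'-cGAMP at 10 μg/mL for 30 min with digitonin permeabilization, followed by 4 h of rest, and how the control cells were handled is not described. With 1 library per line and treatment there were no replicates, each edited line was 1 clone, and haplotype and clone cannot be told apart.

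APOL proteins are amphipathic, membrane-active proteins. APOL1 is the member with a signal peptide, circulates on high-density lipoprotein and forms the ion channel that kills trypanosomes, while the other members stay inside the cell. APOL3 acts at the Golgi, where it meets the calcium sensor NCS1 and the lipid kinase PI4KB, and can dissolve bacterial membranes, and APOL6 carries a BH3-like motif and promotes cell death when overexpressed. The family is known as a target of interferons through the factors IRF1 and STAT2, and activated STING1 drives interferon production through TBK1 and IRF3.

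The genes lie on chromosome 22 (GRCh38, GENCODE release 44). From low to high coordinate, APOL6 spans 35648446 to 35668404 on the plus strand, APOL3 36140329 to 36166177 on the minus strand, APOL4 36189124 to 36204840 on the minus strand, APOL2 36226209 to 36239954 on the minus strand and APOL1 36253071 to 36267530 on the plus strand. APOL1 to APOL4 thus sit within 127 kb, and APOL6 stands apart from them by 472 kb. The canonical transcripts are spliced and coding, with 3 exons in APOL6, 4 each in APOL3 and APOL4, 5 in APOL2 and 6 in APOL1. No annotated gene overlapped a member. The members are paralogs, so reads could in principle be shared between them. All 30 member values in the table were exact whole numbers, as were 92.7% to 93.3% of all values of a library, zeros included. A comparison of the canonical transcripts found 0 stretches of 150 bases, the read length, common to a member and another APOL gene. Of the stretches of 50 bases, 0.51% in APOL1, 0.452% in APOL3, 0.21% in APOL2 and none in APOL4 and APOL6 were shared.

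Libraries held 12444822 to 17608467 counts, and values below are counts divided by TMM size factors (normalized counts). STING1 itself had 669 normalized counts in the WT/HAQ control library, 353 in WT/- and 213 in HAQ/-. With cGAMP its levels were 1780.3, 553 and 403, so the parent line had the most STING1 mRNA and HAQ/- the least in both states. The level of STING1, its haplotype and the clone cannot be told apart here. All 8 epithelial and ovarian carcinoma markers (EPCAM, KRT8, KRT18, KRT7, PAX8, ERBB2, MUC16, CDH1) were above the count minimum, with MUC16 down to 1 count in the HAQ/- control library. Their summed level was 87928.9 to 107497.1 in controls and 72485.5 to 89558.3 with cGAMP, and most of it was 1 gene, ERBB2 (46462 to 69247 normalized counts, named after its values were seen). Within the list, MUC16 had log2 folds of 1.23, 1.52 and 0.74 and was called by neither tool (adjusted p = 0.0857 in edgeR and 0.178 in DESeq2). PAX8 had log2 folds of -1.78, -0.92 and -0.49 in WT/HAQ, WT/- and HAQ/-, and KRT7 had a log2 difference of -0.68 (SE 0.13) over the lines in edgeR. PAX8 and KRT7 were called lower by DESeq2 (adjusted p = 0.000553 and 0.00127) but not by edgeR (adjusted p = 0.0821 and 0.0644). Of 9 markers of other cells, the blood markers PTPRC, CD3E and CD14 had 0 to 4 counts in each library. The summed level of the 9 was 1385.0 to 1655.5 in controls and 1334.4 to 1998.1 with cGAMP, most of it COL1A1, ALB and DCN. The part of either list in the results was not tested.

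All 5 members were higher with cGAMP than without it in each of the 3 lines. APOL1, APOL2 and APOL6 went from moderately expressed to abundant, APOL3 went from a low level to about the control level of APOL2 and APOL6 in WT/HAQ and WT/-, and APOL4 appeared from near 0. The increase was smallest in HAQ/- for every member. Together the 5 genes took 0.0222% of the counts in the WT/HAQ control library and 0.416% with cGAMP, 0.0254% and 0.275% in WT/-, and 0.0214% and 0.123% in HAQ/-. These are bulk libraries, in which a change in the share of responding cells and a change in RNA per cell cannot be told apart.

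**Figure D1:**
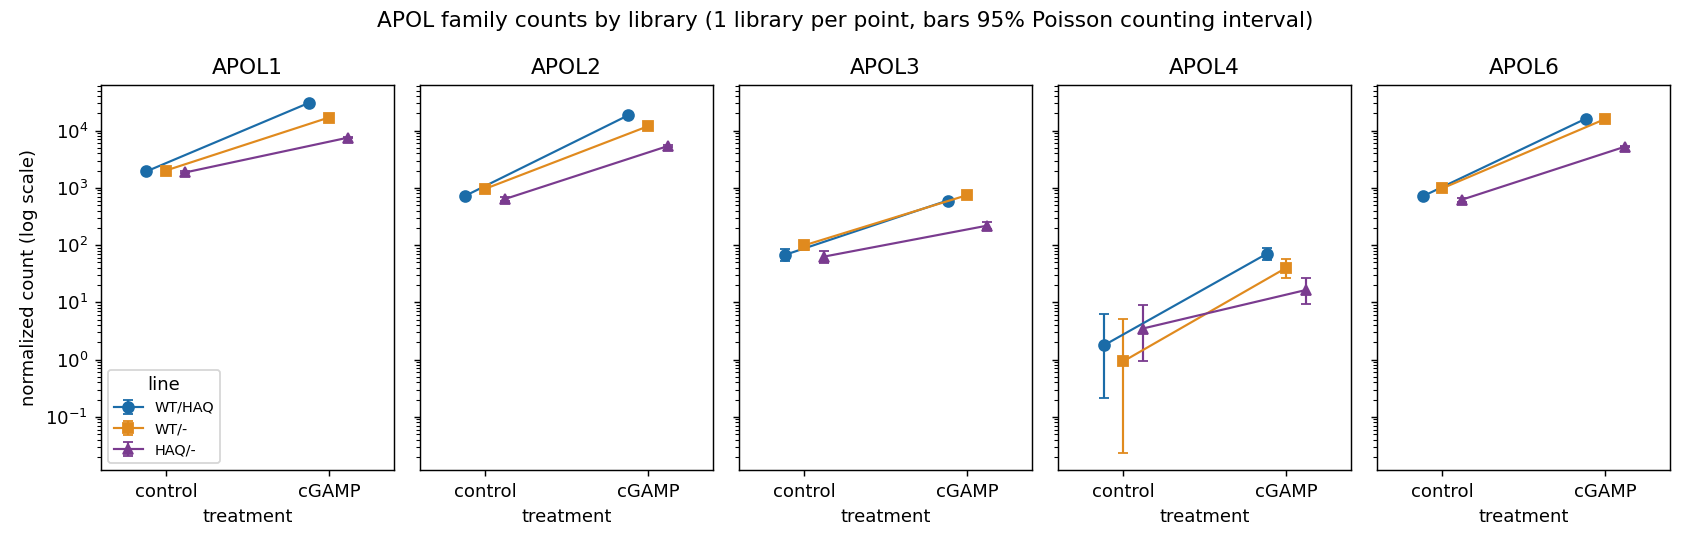
Normalized counts (vertical log axis) of the 5 APOL genes in control and cGAMP libraries of the WT/HAQ, WT/- and HAQ/- lines, with 1 library per point and 95% Poisson counting intervals as bars. Each line rises from control to cGAMP, and the HAQ/- library is the lowest of the 3 cGAMP libraries for every gene.

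APOL1, the secreted trypanolytic member, had 1938 normalized counts in the WT/HAQ control library, 2009 in WT/- and 1863 in HAQ/-. With cGAMP it had 30712, 16928 and 7564, respectively. The controls lay close together, with ratios between lines of 0.965 to 1.08, and the cGAMP libraries were graded from WT/HAQ through WT/- to HAQ/-. cGAMP raised the level 15.8-fold in the parent line (95% Wilson counting interval, 15.2 to 16.5), 8.42-fold in WT/- (8.05 to 8.82) and 4.06-fold in HAQ/- (3.87 to 4.26). Such intervals cover counting error only, and not the variation between cultures.

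APOL2, an intracellular member that lies next to APOL1 and is transcribed in the opposite direction, had 729 normalized counts in the WT/HAQ control library, 960.3 in WT/- and 635 in HAQ/-. The cGAMP libraries held 18588, 11928 and 5352. WT/- had the highest control level, but with cGAMP it lay between the other lines, as for APOL1. The folds were 25.5 (23.8 to 27.3) for WT/HAQ, 12.4 (11.6 to 13.2) for the WT/- clone and 8.43 (7.80 to 9.11) for the HAQ/- clone.

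APOL6, the BH3-like member, stood at 713 normalized counts in the WT/HAQ control library, 983 in WT/- and 621 in HAQ/-. With cGAMP it reached 16159, 16010.1 and 5235, respectively. The treated WT/HAQ and WT/- libraries had nearly the same level, and HAQ/- was well below both. Folds were 22.7 (21.1 to 24.3), 16.3 (15.3 to 17.4) and 8.43 (7.79 to 9.12) in the same order.

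APOL3, the Golgi-associated member, had 67.2 normalized counts in the WT/HAQ control library, 98.9 in WT/- and 62.8 in HAQ/-, and 601, 747 and 218 with cGAMP. Here the WT/- line was highest in both states. The folds of 8.94 in WT/HAQ (7.05 to 11.3) and 7.55 in WT/- (6.13 to 9.29) had overlapping intervals, and the HAQ/- fold was 3.47 (2.65 to 4.54).

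APOL4, a member with no well-established cellular role, was represented by 2, 1 and 4 counts in the WT/HAQ, WT/- and HAQ/- control libraries and by 74, 30 and 15 counts with cGAMP. The control libraries were thus close to the detection limit. The plain ratios were 39.8 (10.7 to 147) for WT/HAQ, 42.9 (7.41 to 249) for the WT/- clone and 4.71 (1.64 to 13.5) for the HAQ/- clone, and the wide intervals follow from the few control counts. For counting and ranking genes, counts under 3 were set to 3, which gave APOL4 folds of 26.5, 14.3 and 4.71. APOL4 passed the minimum mean count only through its cGAMP libraries, so that it had to differ, and the other 4 members passed in the controls as well.

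A gene was taken as raised in a line at a fold of at least 1.5. All 5 members were raised in WT/HAQ, where 12.8% of the 15126 genes were, all 5 in WT/-, where 11.9% were, and all 5 in HAQ/-, where 6.75% were. APOL4 adds nothing to these counts, for the reason given. The median log2 fold of the 4 members other than APOL4 was 4.24 for WT/HAQ, 3.35 for the WT/- clone and 2.55 for the HAQ/- clone, and that of all genes was -0.01, 0.00 and -0.01. Ranked by fold among all genes, APOL2 stood 80th, APOL6 94th, APOL1 126th and APOL3 226th in WT/HAQ. In HAQ/- APOL6 stood 52nd and APOL2 53rd, followed by APOL1 at 151 and APOL3 at 177. In WT/- these 4 members ranked from 99 (APOL6) to 199 (APOL3). In each line, fewer than 1.5% of genes had a larger fold than any of the 4, although their folds were smaller in HAQ/-. The place of APOL4 rests on the floor, since with counts under 10 set to 10 its log2 fold in WT/HAQ was 2.99, below that of APOL3 (3.16).

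**Figure D2:**
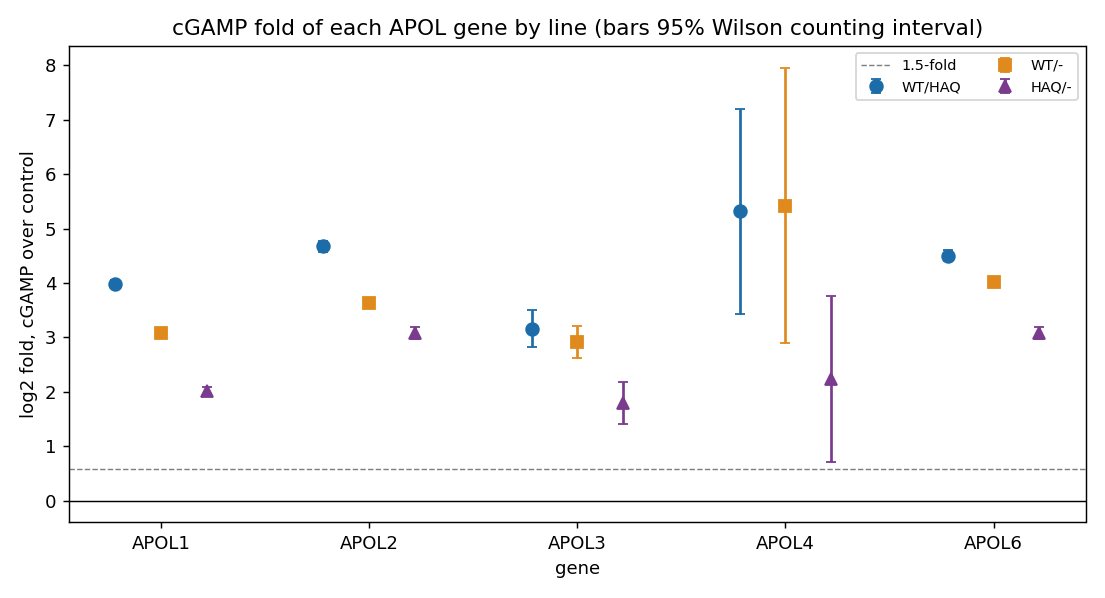
Log2 fold of cGAMP over control (vertical axis) for each APOL gene in WT/HAQ, WT/- and HAQ/-, as the ratio of normalized counts with 95% Wilson counting intervals; the dashed line marks 1.5-fold. All 15 points lie above it, from 1.79 for APOL3 in HAQ/- to 5.42 for APOL4 in WT/-.

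Taking the 3 lines as the only repeats of the treatment, edgeR's quasi-likelihood test with a term for line and p-values adjusted by Benjamini-Hochberg over all genes called all 5 members higher with cGAMP, where 2.27% of genes were called higher. The log2 difference was 3.87 for APOL6 (SE 0.30, adjusted p = 0.00843), 3.79 for APOL2 (SE 0.33, adjusted p = 0.0112) and 2.67 for APOL3 (SE 0.27, adjusted p = 0.0158) in this edgeR fit. It was 3.03 for APOL1 (SE 0.39, adjusted p = 0.0280) and 4.15 for APOL4 (SE 0.65, adjusted p = 0.0444), whose test is bound to the filter as above. With a minimum mean count of 50, APOL4 was not tested and 4 of 4 members were called. The difference was positive in 3 of 3 lines for each gene. This test had 2 residual degrees of freedom, and it measures the spread of the effect over 1 parent and 2 clones, which edgeR moderates over all genes. Without the WT/- line the log2 differences stayed between 2.52 and 3.89, but edgeR called 0 genes in the whole table and 0 members (lowest adjusted p of a member = 0.208), while an unadjusted p under 0.05 was reached by 953 genes with a higher and 945 with a lower level, the 5 members among the former. Without the WT/HAQ line, APOL4 was not called by edgeR (adjusted p = 0.180). Without the term for line it called 2 of the 5, APOL2 and APOL6.

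The lines were next compared for the size of the response. For each member the cGAMP fold was smaller in HAQ/- than in both lines with a WT allele. The same held for 35.2% of all genes and for 80.2% of the 344 genes called higher with cGAMP, so it was common among induced genes. On the log2 scale the fold of WT/HAQ exceeded that of HAQ/- by 1.96 for APOL1 (counting interval, 1.87 to 2.06), 1.60 for APOL2 (1.45 to 1.75), 1.43 for APOL6 (1.27 to 1.58) and 1.37 for APOL3 (0.85 to 1.88). For APOL4 this difference was 3.08 with an interval from 0.66 to 5.50, and 2.50 with counts under 3 set to 3. The fold of WT/- exceeded that of HAQ/- by 1.05 for APOL1, 0.56 for APOL2, 1.12 for APOL3 and 0.95 for APOL6, again on the log2 scale. For APOL4, with 1 count in the WT/- control library, it was 3.19 (0.23 to 6.15), and 1.60 with counts under 3 set to 3. APOL2 was therefore the member in which WT/- lay closest to HAQ/-. Of all genes, 12.5% had a larger difference between WT/- and HAQ/- than APOL2, 6.47% than APOL6, 5.54% than APOL1 and 4.92% than APOL3.

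Whether the cGAMP effect in HAQ/- differed from the mean effect of WT/HAQ and WT/- was tested as an interaction in edgeR, with 1 residual degree of freedom. That degree of freedom is the difference in effect between WT/HAQ and WT/-, which edgeR moderates over all genes. HAQ/- was 1 line with 1 library per treatment, so its own spread was not measured and was assumed to be like that of the other lines. It was called smaller in HAQ/- for 1 of the 5 members, against 1.01% of all genes. That member was APOL6, with a log2 difference of effects of -1.19 (SE 0.21, adjusted p = 0.0472). The estimates for APOL1 (-1.51, SE 0.32, adjusted p = 0.0820), APOL3 (-1.24, SE 0.28, adjusted p = 0.107), APOL2 (-1.08, SE 0.36, adjusted p = 0.305) and APOL4 (-3.04, SE 1.15, adjusted p = 0.417) had the same sign and did not pass the threshold of 0.05 in edgeR. The APOL6 estimate had the smallest standard error of the 5. With DESeq2 size factors in the edgeR fit the APOL6 adjusted p was 0.116 and 0 members were called. All 5 had an unadjusted p under 0.05 in that fit, as had 1383 of the 15126 genes. With the minimum mean count lowered to 1 (21012 genes) the APOL6 adjusted p was 0.000627 and 4 members were called, all but APOL4. The Wald test of DESeq2 called APOL6 alone (adjusted p = 0.0134). In it only APOL3 and APOL6 had an unadjusted p under 0.05, as had 589 of the 15126 genes.

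The parent line and the WT/- clone did not respond alike for all members. The log2 fold of WT/HAQ exceeded that of WT/- by 1.04 for APOL2 (0.90 to 1.17), 0.91 for APOL1 and 0.48 for APOL6 (0.34 to 0.61), whereas for APOL3 the interval of the difference held 0 (0.24, -0.21 to 0.70). For APOL4 it did so as well (-0.11, -3.27 to 3.05), and the difference was 0.89 with counts under 3 set to 3. Levels in the cGAMP libraries separated the family more clearly. APOL1 and APOL2 were higher in WT/HAQ than in WT/- by a ratio of 1.81 (1.78 to 1.85) and 1.56 (1.52 to 1.60), APOL6 had a ratio of 1.01 (0.986 to 1.03), and APOL3 a ratio of 0.805 (0.718 to 0.902). APOL4 had a ratio of 1.76 (1.15 to 2.67). Of all genes, 5.75% had a ratio of WT/HAQ to WT/- above that of APOL1 in the cGAMP libraries, and 8.79% above that of APOL2. No replicate was there to test these contrasts.

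In the control libraries the same pair of lines showed another order. APOL2, APOL3 and APOL6 were lower in WT/HAQ than in WT/-, with ratios of 0.759 (0.693 to 0.832), 0.679 (0.506 to 0.911) and 0.726 (0.662 to 0.796), and APOL1 was level at 0.965 (0.909 to 1.02). WT/- control cells also exceeded HAQ/- control cells for these genes, by 1.51 for APOL2 (1.38 to 1.66), 1.57 for APOL3 (1.17 to 2.12) and 1.58 for APOL6 (1.44 to 1.74), while the APOL1 ratio was 1.08 (1.02 to 1.15). Such ratios were not rare, since 13.3% to 14.9% of all genes had a larger ratio of WT/- to HAQ/- in the controls than these 3 genes. For APOL4 this ratio was 0.267 with an interval that held 1 (0.0402 to 1.78). The median log2 ratio over all genes was within 0.02 of 0 for each pair of control libraries.

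**Figure D3:**
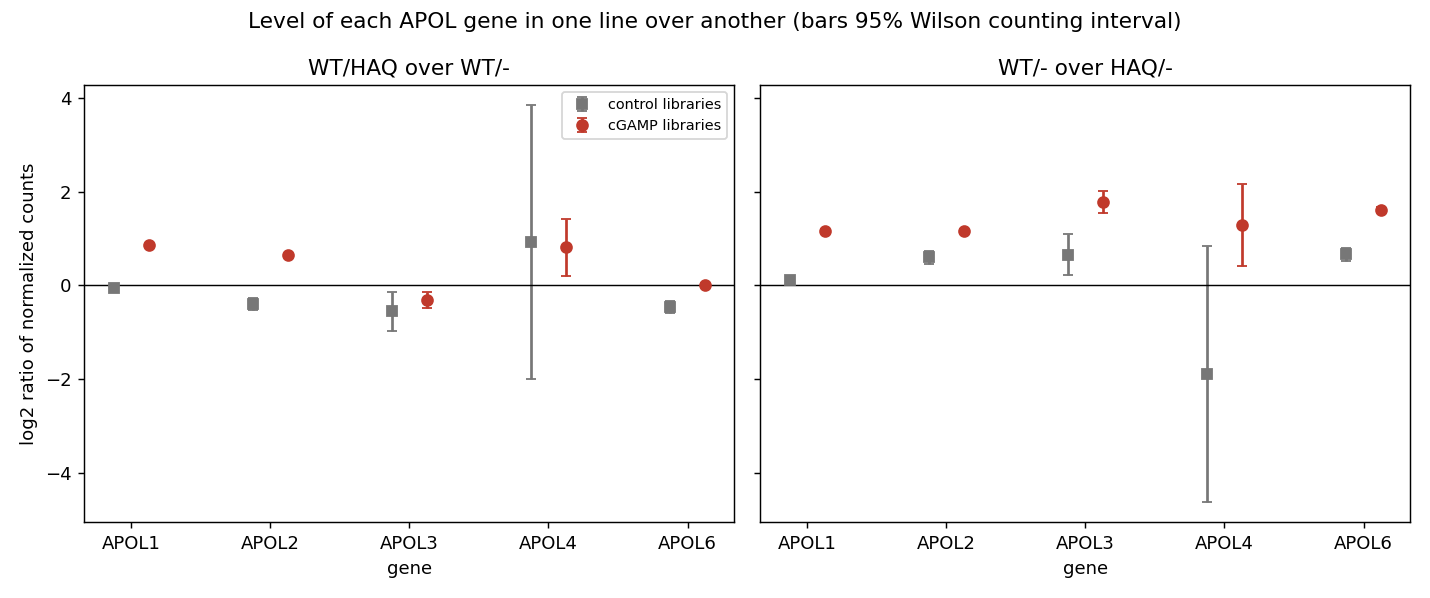
Log2 ratio of normalized counts (vertical axis) of WT/HAQ over WT/- (left) and of WT/- over HAQ/- (right) for each APOL gene, in control (squares) and cGAMP libraries (circles), with 95% Wilson counting intervals. On the left, APOL1 and APOL2 lie above 0 with cGAMP, at 0.86 and 0.64, and APOL6 lies at 0.01; on the right, all 5 genes lie above 0 with cGAMP, from 1.16 to 1.78.

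To compare members with each other, normalized counts were divided by the length of the canonical transcript, which ranges from 2.041 kb in APOL3 to 10.065 kb in APOL6. Per kb, the order was APOL1, APOL2, APOL6, APOL3 and APOL4 in all 6 libraries, and the counting intervals of neighbours in this order did not overlap. In the WT/HAQ control library the levels per kb were 694 for APOL1, 300.2 for APOL2, 70.9 for APOL6, 32.9 for APOL3 and 0.576 for APOL4. With cGAMP they were 10988, 7652, 1605.5, 294 and 22.9. APOL1 was therefore the most abundant member per length with and without cGAMP. Its share of the family's summed level per kb went from 63.2% to 53.4% for WT/HAQ, from 57.0% to 46.8% for the WT/- clone and from 65.2% to 48.8% for the HAQ/- clone. The share of APOL2 went from 27.3% to 37.2%, from 31.4% to 38.0% and from 25.6% to 39.8% in the same order. The share of APOL3 was 1.43%, 2.83% and 1.93% with cGAMP, lower than in the control library of each line. This share depends on the length used. With the union of annotated exons in place of the canonical transcript it was 0.634%, 1.25% and 0.855% with cGAMP, from 1.33%, 1.72% and 1.33% without it. For APOL6 the share with cGAMP was 7.81%, 12.3% and 9.38%, from 6.45%, 7.74% and 6.04% without it.

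The ratio of 2 members within a library does not depend on library scaling. Counts of APOL1 over APOL2 were 2.66 (2.45 to 2.88), 2.09 (1.94 to 2.25) and 2.93 (2.70 to 3.19) in the WT/HAQ, WT/- and HAQ/- control libraries. With cGAMP they were 1.65 (1.62 to 1.68), 1.42 (1.38 to 1.46) and 1.41 (1.36 to 1.47). APOL2 over APOL6 was 1.02, 0.977 and 1.02 in the controls, with 1 inside each interval. With cGAMP this ratio was 1.15 (1.13 to 1.17) for WT/HAQ, 0.745 (0.725 to 0.766) for the WT/- clone and 1.02 (0.982 to 1.06) for the HAQ/- clone, so the ratio in HAQ/- was the same in both states and it shifted in opposite directions in the other lines.

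Over the 6 libraries, log2 normalized counts of the members were correlated with each other at a Pearson r of 0.908 (APOL3 and APOL4) to 0.996 (APOL2 and APOL6). These values rest on 6 points that split into controls and cGAMP libraries, and of the genes averaging 50 counts or more, between 1.08% and 2.51% had an r of at least 0.95 with a member. The genes most like APOL6 were UBE2L6 (r = 0.999), USP18 (r = 0.999) and IL15RA (r = 0.998). UBE2L6 is the conjugating enzyme and USP18 the protease of the ubiquitin-like modifier ISG15, and IL15RA presents interleukin-15. APOL2 was most like DDX60L, GMPR and IL15RA (r = 0.996 to 0.997), B4GALT5 and STAT2 were among the genes most like APOL3 (r = 0.999 and 0.997), and APOL1 was most like MYD88, JTB and GNG5 (r = 0.994 to 0.997). For APOL4, with its few counts, the nearest genes were HOXB6, CD68 and DYNC1H1 (r = 0.992 to 0.996).

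The members were also set beside their neighbours on the chromosome. RBFOX2, an RNA splicing regulator, lies in the gap between APOL6 and APOL3, and MYH9, the heavy chain of non-muscle myosin IIA, lies on the minus strand with its 3' end 13.7 kb beyond APOL1. RBFOX2 had log2 folds of 0.89 for WT/HAQ, 0.76 for the WT/- clone and 0.23 for the HAQ/- clone, and MYH9 had -0.73, -0.48 and -0.16. Both were smaller than the fold of any member in the same line, and edgeR called neither (adjusted p = 0.0787 and 0.0946), whereas DESeq2 called RBFOX2 higher (adjusted p = 0.00526) and MYH9 lower (adjusted p = 0.0420). Within 1500 kb of the start of APOL1, 27 other genes were tested. Of these, 2 were raised in the parent line, 2 in WT/- and 0 in HAQ/-, beside 12.8%, 11.9% and 6.75% of all genes. Respectively 8, 5 and 1 of these 27 genes were lowered at least 1.5-fold, beside 12.3%, 8.77% and 5.76% of all genes, and the symbol ELFN2 stands for 2 identifiers among the 27. Of the 13 neighbours listed for the family, 11 were tested and edgeR called 0, with 3 at an unadjusted p under 0.05, while DESeq2 called only RBFOX2 and MYH9 among them. Over all 15126 genes edgeR called 344 higher and 145 lower, with 3819 at an unadjusted p under 0.05, and DESeq2 called 772 and 583. The high folds at this locus were thus those of the APOL genes.

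**Figure D4:**
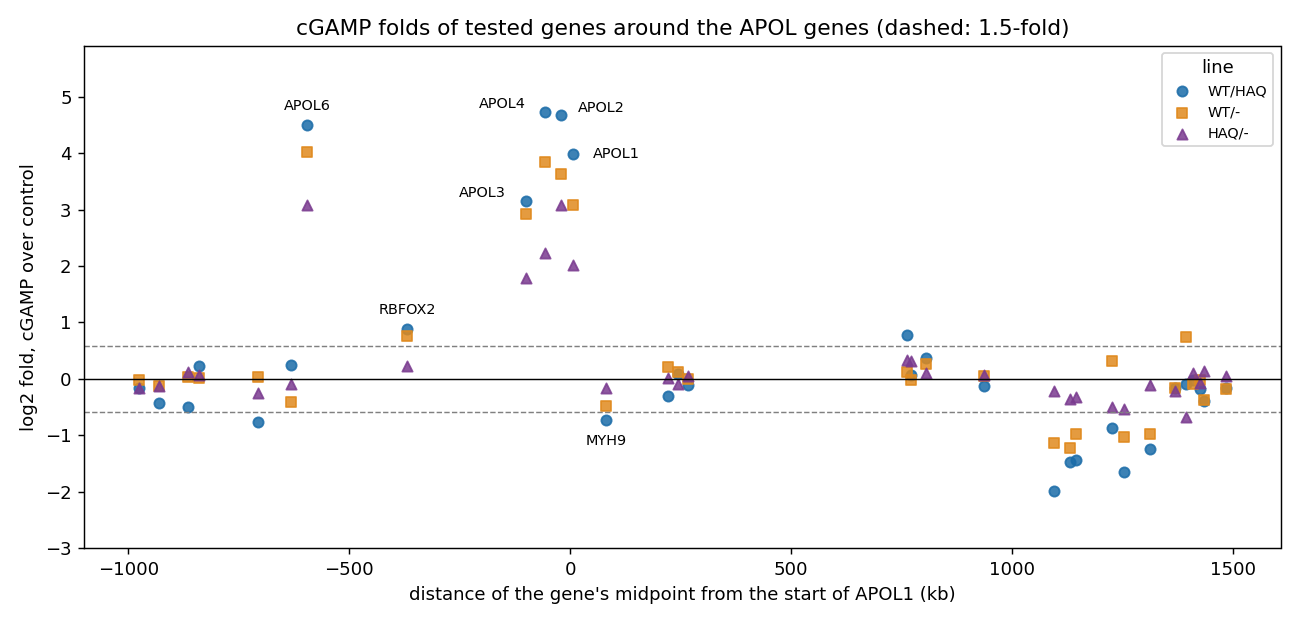
Log2 fold of cGAMP over control (vertical axis) of tested genes against the distance of their midpoint from the start of APOL1 in kb (horizontal axis), by line, with dashed lines at 1.5-fold. The 5 APOL genes lie at 1.79 to 4.73 with counts under 3 set to 3, and the 27 other genes lie at or below 0.89.

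Relatives outside the member list served for comparison. APOL5, the APOL gene between APOL6 and RBFOX2, had 2 counts in the WT/- control library and 0 in the other 5, below the floor of 3 counts in all 6, so it was not detectable at this depth with or without cGAMP. APOLD1, a more distant relative of endothelial cells on chromosome 12, had 8 to 29 counts per library and log2 folds of -1.75 for WT/HAQ, -0.48 for the WT/- clone and -0.18 for the HAQ/- clone. It was not called by edgeR (adjusted p = 0.318). Of 18 genes of other families, taken by name as apolipoproteins or their partners, 5 were tested (APOE, APOM, APOO, APOOL and CLU). Their log2 folds lay between -0.82 and 0.56, and neither edgeR nor DESeq2 called any, with 0 at an unadjusted p under 0.05. APOA1 and HPR, which share lipoprotein particles with circulating APOL1, did not reach the count minimum.

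Of 10 interferon-related transcription factors, edgeR called 8 higher with cGAMP and 1, IRF3, lower, and STAT3 was not called. Of all 15126 genes it called 344 higher and 145 lower. BATF2 differed most, with a log2 difference of 5.50 (SE 0.23) over the lines, and STAT2 had log2 folds of 3.24, 2.55 and 1.80 in WT/HAQ, WT/- and HAQ/-. IRF3, the factor that STING1 signalling activates by phosphorylation, had -0.56, -0.56 and -0.34. In the interaction test edgeR called none of the 10, with 4 at an unadjusted p under 0.05, and DESeq2 called none. The interferon-induced guanylate-binding proteins GBP1 to GBP5 had log2 folds of 0.37 to 5.11 for WT/HAQ, 0.80 to 4.53 for the WT/- clone and 0.01 to 2.75 for the HAQ/- clone. The 4 IFIT genes, RNA-binding antiviral effectors, had 2.89 to 8.34, 2.53 to 7.22 and 2.26 to 6.10. The member folds of 3.16 to 4.73, 2.92 to 4.03 and 1.79 to 3.08 lay inside the range of the GBP genes in WT/HAQ and WT/-, and APOL2 and APOL6 lay above it in HAQ/-. In the interaction test edgeR called 1 of the 5 GBP genes smaller in HAQ/-, beside 1.01% of all genes. DESeq2 called 2 of the 5, beside 134 of all 15126 genes, and neither tool called an IFIT gene. No test was made between these families.

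Finally, the Golgi phosphatidylinositol 4-phosphate machinery linked to APOL3 was examined. Of its 11 genes, 10 were tested and edgeR called 0, with 3 at an unadjusted p under 0.05, whereas DESeq2 called 1 higher. PI4K2B, a type II kinase (identifier ENSG00000038210), had log2 folds of 0.48, 0.75 and 0.17 in WT/HAQ, WT/- and HAQ/-, and PI4K2A had -0.43, -0.52 and -0.26. A second identifier with the symbol PI4K2B (ENSG00000281028), outside the 10, had 0 to 37 counts and a log2 difference of -1.64 (SE 0.74) that edgeR did not call (adjusted p = 0.250). PI4KB, the kinase bound by NCS1, had log2 folds of -0.33, -0.27 and -0.05. The median log2 fold of these 10 genes was -0.12, -0.12 and -0.05, beside 3.16, 2.92 and 1.79 for APOL3 in the same lines.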

How the data were processed

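The authors deposited 1 table of expected counts per gene for 6 poly(A) libraries (TruSeq, paired-end 150 bp). The submitters' processing notes name STAR, RSEM, GRCh38 and hg38, and versions and the annotation release are not given in the sources used here. All 6 columns were matched to samples by label. Expected counts were rounded, the 15126 genes averaging 10 or more counts per library were kept, and size factors came from TMM in edgeR 4.0.16 (R 4.3.3), scaled to a geometric mean of 1. Intervals are 95% Wilson for ratios and exact Poisson for levels, and cover counting error only. Differences of log2 folds combine the Wilson bounds. DESeq2 1.42.0 was an alternative. The labels do not say that libraries came from separate cultures. Positions and lengths were taken from GENCODE 44 (Python 3.11.15). Named genes were the members, relatives, STING1, up to 4 extremes of a list by mean log2 fold, and the 3 genes most correlated with each member. Some genes under this rule are not reported here. Members and lists were chosen with earlier results of these data known. Promoter and protein sequences of the members were not used here.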

Additional observations from a re-analysis of the deposited data

Results flagged for a closer look

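The cGAMP effect on APOL6 was smaller in HAQ/- than the mean effect of the 2 lines with a WT allele by the interaction test of edgeR, with a log2 difference of -1.19 (SE 0.21, adjusted p = 0.0472). The standard error reflects how far WT/HAQ and WT/- differed, moderated over all genes, since HAQ/- was 1 line whose own spread was not measured. Its adjusted p ranged from 0.000627 to 0.116 over the alternatives, and the estimate was negative in all of them. With 1 library per line and treatment, no group could be examined for an outlying library.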

How the results depend on the processing

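All 5 members were raised in each line under 7 other settings and without the floor, the order per kb was the same in 6 of 6 libraries with the union of exons, and the HAQ/- cGAMP level was the lowest for 5 of 5 members with DESeq2 size factors and with total counts. APOL4 adds nothing to the counts of raised members, since it passed the minimum mean count only through its cGAMP libraries. Of 120 recomputed member folds 118 stayed inside their counting interval, 2 moved (APOL4 in WT/HAQ and WT/-, to 2.99 and 2.10 on the log2 scale with a floor of 10 counts, which replaces the few control counts) and 0 changed sign. With that floor the APOL4 fold in HAQ/- was 0.91 against 2.23, still inside its wide interval (0.71 to 3.75). The floorless folds and the other scalings of levels between lines were chosen after seeing the data. The count of members called by the treatment test was 2 with no line block and 2 with APOL1 to APOL4 summed, where the sum and APOL6 were the 2 features left and both were called. Leaving out each line gave 0 to 5 called members. Without the block the table held 57 genes higher and 4 lower against 344 and 145, with DESeq2 772 and 583, with a minimum mean count of 1 581 and 424, and leaving out a line 0 to 1313 and 0 to 1314. In the interaction test, 0 members were called with DESeq2 size factors, with 5 at an unadjusted p under 0.05, as were 1383 of the 15126 genes. With a minimum mean count of 1, 4 members were called. Over all genes these 2 settings gave 99 and 353 lower against 153. The Wald test of DESeq2 called 1 member, with 2 at an unadjusted p under 0.05, and 134 genes lower. The cause was not tested. Control and cGAMP libraries were paired by line in the treatment test, and no pairing by replicate number could be added, since each line and treatment has 1 library. The promoter motif and protein identity comparisons were not run. Depth limited APOL4, with 1 to 4 control counts, and APOL5.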
